A study of Homo sapiens with 6 samples.

Results

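The genes described here are the ligands, latent binding proteins, receptors, SMADs, antagonists and ID target genes of the TGF-beta and BMP pathway. They were chosen by name as a list of 50 genes, of which 48 are among the 24526 genes of the count table. INHBB and BMPR1B were not analysed here. The data are RNA-seq of WM266.4, an established human melanoma cell line, 48 h after transfection. A total of 3 libraries came from cells given a negative control siRNA (neg.si, named control.si in the sample titles) and 3 from cells given an siRNA against the kinase RIPK4 (RIPK4.si), and the study describes the 3 as biological replicates. The silencing used 1 siRNA, so that effects of lower RIPK4 and other effects of that siRNA cannot be told apart.

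TGF-beta and activin ligands bind serine/threonine kinase receptors of type I and type II, which phosphorylate SMAD2 and SMAD3, whereas BMP ligands mostly act through SMAD1, SMAD5 and SMAD9. Both groups of SMADs enter the nucleus with SMAD4. Latent binding proteins hold TGF-beta in the matrix, secreted antagonists such as follistatin bind ligands, and the ID genes are well known targets of BMP signalling. In melanoma the pathway is known for effects on invasion and on the differentiation state of the cells.

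Total counts per library ranged from 28464057 to 31688095. Levels are given as CPM, the usual measure of counts relative to library size, with each library's size scaled by edgeR's TMM method. A count of 0 in a library allows up to 3 counts, which is 0.0944 to 0.104 CPM here, for counting error only. The libraries of each group differed among themselves. The rank correlation of a gene's deviation from its mean with its GC content was 0.56 in neg.si replicate 1, 0.082 in neg.si replicate 2 and -0.55 in neg.si replicate 3, across genes, which are not independent replicates. In the RIPK4.si libraries it lay between -0.079 and 0.17. The part of this difference in the results was not tested beyond the fits without each library and with the GC trend removed.

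Of the markers of melanocytes and melanoma, the labelled cell type, all 12 were in the table and 11 had a mean above 1 CPM, with CSPG4 the most abundant at 1695 CPM. Their summed level was 7739.7, 7110.1 and 6153 CPM in the neg.si libraries and 6307, 6080.1 and 6170.3 CPM in the RIPK4.si libraries. PMEL, a melanosome protein, fell by 1.30 on the log2 scale (adjusted p = 0.0111 in edgeR). It was the 1 marker of the 12 that edgeR called, against 0.767% of all genes tested. DESeq2 called 3, PMEL and the melanin synthesis genes DCT and TYR, against 2.78% of all genes with an adjusted p. All 3 were lower in every RIPK4.si library. Of the 12, 6 had a negative and 6 a positive log2 fold change. Fewer cells of a type and less RNA per cell cannot be told apart in these libraries. Of 8 fibroblast markers, 4 had a mean above 1 CPM, COL1A2 at 736 CPM, FAP at 94.7 CPM, THY1 at 4.10 CPM and PDGFRB at 3.58 CPM. PDGFRA and LUM were under 1 CPM and passed the filter on low counts, and DCN and COL1A1 did not pass it. The fibroblast list summed to 728, 733 and 929 CPM in neg.si and 1146, 623 and 880.3 CPM in RIPK4.si. The summed level of the keratinocyte list was between 10.7 and 16.4 CPM in each library, most of it KRT10, and KRT5, KRT14 and TP63 did not pass the filter. The endothelial list summed to at most 5.19 CPM and the leukocyte list to at most 2.62 CPM in any library, with TEK and CD14 their most abundant genes. KRT1, CDH5 and CD68 were not analysed here. The part of these lists in the results was not tested.

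RIPK4 (chromosome 21, 41739369 to 41767089), the silenced gene, had 85.8, 76.5 and 54.7 CPM in the neg.si libraries and 19.9, 16.7 and 21.5 CPM in the RIPK4.si libraries. The groups did not overlap, and the mean in RIPK4.si was 26.8% of that in neg.si. RIPK4 fell by 1.90 on the log2 scale with a standard error (SE) of 0.203 and an adjusted p of 0.0102 in edgeR, adjusted by the Benjamini-Hochberg method over every gene tested. Its adjusted p became 0.094, 0.0622 and 0.0725 when RIPK4.si replicate 1, 2 or 3 was left out and 0.106 when neg.si replicate 2 was left out. In these fits edgeR called 0, 4, 0 and 0 genes in all, in that order, against 125 with all libraries. Over the alternatives it ran from 1.25e-13 to 0.106. RIPK4 shares exon bases with an unnamed gene on the opposite strand, and the counting ignored strand.

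Of the 48 genes, 42 passed edgeR's filter on low counts. Among them, 1 gene, FSTL3, had an adjusted p under 0.05, against 0.767% of the 16297 genes tested. It was lower in RIPK4.si. DESeq2 called 4 of the 40 genes for which it gave an adjusted p (FSTL3, TGIF1, FST and SMAD5), against 2.78% of all genes. With the trend of counts on GC content removed, edgeR called 3 (FSTL3, TGIF1 and FST), against 3.27% of all genes. Without neg.si replicate 3, edgeR also called 3, and the share of all genes called was then 1.78%. It called 0 without RIPK4.si replicate 1, 2 or 3 or without neg.si replicate 1 or 2. Of all genes it then called 0%, 0.0237%, 0%, 0.418% and 0%, in that order. In these fits, 8, 9, 5, 14 and 7 of the genes had an unadjusted p under 0.05, against 8.54%, 8.73%, 6.48%, 13.5% and 6.88% of all genes. In all 6 libraries, 10 of the 42 genes had an unadjusted p under 0.05 against 10.8% of all genes, 8 with lower levels (6.0% of all genes) and 2 with higher levels (4.85% of all genes).

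For 15 of the 42 genes no library of a group lay within the range of the other group, against 17.6% of all genes. Levels were lower in every RIPK4.si library for 10 (9.40% of all genes) and higher for 5 (8.23% of all genes). The median log2 fold change was -0.14, against -0.02 over all genes tested, and it ran from -0.19 to -0.09 when single libraries were left out, with -0.09 without neg.si replicate 2. Of the 42 genes, 28 (66.7%) had a negative and 14 a positive log2 fold change, against 53.4% negative over all genes tested, and in 18 its size was under 0.2. The genes were chosen with earlier results of these libraries known, and nothing particular to the list is read from these counts.

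**Figure D1:**
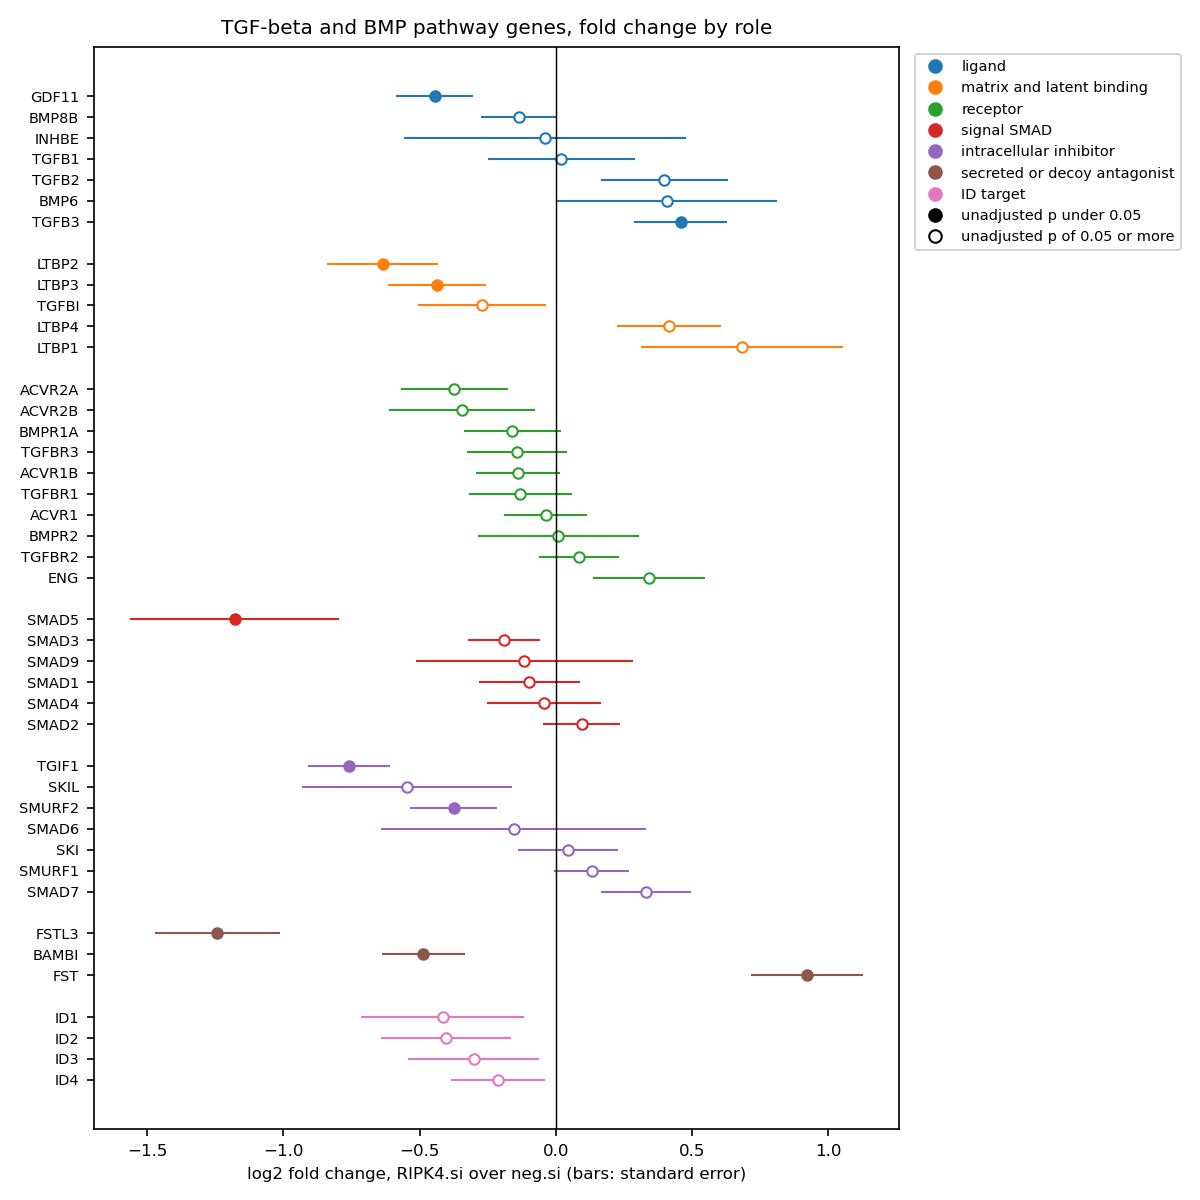
The log2 fold change of RIPK4.si over neg.si (horizontal axis) for the 42 genes that passed the filter, grouped by role, with bars for the standard error and filled points for an unadjusted p under 0.05. Values run from -1.24 in FSTL3 to 0.92 in FST, both secreted antagonists.

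The secreted or decoy antagonists held the lowest and the highest log2 fold change of the 42 genes. FSTL3 (chromosome 19, 676392 to 683392), a secreted protein related to follistatin that binds activins and related ligands, had 64.6, 53.2 and 36.5 CPM in the neg.si libraries and 18.3, 25.3 and 21.6 CPM in the RIPK4.si libraries. Every RIPK4.si library was below every neg.si library, and neg.si replicate 3 was the lowest of its group. The means were 51.4 ± 14.2 CPM in neg.si and 21.7 ± 3.52 CPM in RIPK4.si (SD, n = 3). FSTL3 fell by 1.24 on the log2 scale (SE 0.229 and adjusted p = 0.049 in edgeR). DESeq2 gave an adjusted p of 0.000179, and the alternatives ran from 0.000179 to 0.311. The call was lost with DESeq2's size factors in edgeR (0.0591), with a minimum of 10 counts in each library (0.054), when RIPK4.si replicate 1, 2 or 3 was left out (0.249, 0.136 and 0.311) and when neg.si replicate 1 or 2 was (0.0836 and 0.295). It was 0.00458 without neg.si replicate 3. Without RIPK4.si replicate 1, 2 or 3 edgeR called 0, 4 and 0 genes in all, and without neg.si replicate 1 or 2 it called 70 and 0. The log2 fold change of FSTL3 without single libraries ran from -1.44 to -1.03.

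FST (chromosome 5, 53480626 to 53487134), which encodes follistatin, an extracellular inhibitor of activins, had 5.55, 5.33 and 7.93 CPM in the neg.si libraries and 12.2, 11.2 and 12.3 CPM in the RIPK4.si libraries. The groups did not overlap, with all 3 RIPK4.si libraries higher, at 11.9 ± 0.614 CPM against 6.27 ± 1.44 CPM (SD, n = 3). Its log2 fold change was 0.92 (SE 0.204), which missed the threshold in edgeR (adjusted p = 0.09) and passed it with DESeq2 (0.00386), with the GC trend removed (0.0155), with the GC trend removed and the replicate block together (0.0223) and when neg.si replicate 3 was left out (0.014), and the alternatives ran from 0.00386 to 0.432. With the replicate block alone the adjusted p of FST was 0.0871. FSTL3 and FST were thus on opposite sides of 0. Within a library, the log2 ratio of FST to FSTL3 on the CPM scale was -3.54, -3.32 and -2.20 in neg.si and -0.58, -1.18 and -0.81 in RIPK4.si. This pair was set side by side after its values were seen, and the ratio was given no test.

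BAMBI (chromosome 10, 28677510 to 28682932), a decoy receptor without a kinase domain, had 288, 258 and 232 CPM in the neg.si libraries and 172, 205 and 178 CPM in the RIPK4.si libraries. All RIPK4.si libraries were lower. BAMBI's log2 fold change was -0.49 (SE 0.152 and adjusted p = 0.235 in edgeR). The BMP antagonists GREM1 and NOG were hardly detected. GREM1 had 11 counts in all neg.si libraries and 2 in all RIPK4.si libraries, and NOG had 8 and 8, so that no fold change was computed.

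The promoter windows of FSTL3 and FST are shown because these genes had the largest log2 fold changes in each direction. The windows, of 300 bases around the start of the gene, are from RefSeq on GRCh38.p14, chr19:676142-676441 for FSTL3 and chr5:53480379-53480678 for FST, both on the plus strand. Capitals mark GGCGCC, a GC-rich SMAD element.
FSTL3: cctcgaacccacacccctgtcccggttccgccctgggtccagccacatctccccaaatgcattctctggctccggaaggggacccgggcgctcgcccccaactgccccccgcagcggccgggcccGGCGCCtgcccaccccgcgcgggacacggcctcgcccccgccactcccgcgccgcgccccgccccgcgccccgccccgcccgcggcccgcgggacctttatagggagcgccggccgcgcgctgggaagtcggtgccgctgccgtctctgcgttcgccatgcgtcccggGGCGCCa
FST: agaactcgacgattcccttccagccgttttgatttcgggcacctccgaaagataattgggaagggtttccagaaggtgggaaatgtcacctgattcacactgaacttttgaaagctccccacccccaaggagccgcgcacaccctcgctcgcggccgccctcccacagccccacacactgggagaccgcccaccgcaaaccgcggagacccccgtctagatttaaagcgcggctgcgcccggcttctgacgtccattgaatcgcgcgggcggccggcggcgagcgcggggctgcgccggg
The window of FSTL3 holds 2 copies of GGCGCC, the second next to the end of the window. GGCGCC consists of G and C only, and the GC content is 78.7% in the window of FSTL3 and 63.7% in that of FST. Neither window holds the palindromic SMAD element GTCTAGAC, the short SMAD box CAGAC, the E-boxes CACGTG and CAGCTG or the TPA element TGAGTCA, on either strand, and the window of FST has no GGCGCC. Of the 35116 promoter windows in the table, 0.202% hold GTCTAGAC, 45.3% CAGAC, 19.2% GGCGCC, 7.26% CACGTG, 17.9% CAGCTG and 4.95% TGAGTCA. Of the 48 pathway genes, 43 matched this table, with 79 windows, of which 1.27% hold GTCTAGAC, 51.9% CAGAC, 24.1% GGCGCC, 8.86% CACGTG, 11.4% CAGCTG and 5.06% TGAGTCA. A match is a description of these letters and not a site.

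Among the ligands, 7 of the 11 in the table passed the filter. GDF11 (chromosome 12, 55743122 to 55757264), an activin-like ligand, had 238, 234 and 201 CPM in the neg.si libraries and 164, 173 and 157 CPM in the RIPK4.si libraries. The groups did not overlap. GDF11's log2 fold change was -0.45 (SE 0.143 and adjusted p = 0.248 in edgeR). GDF11 shares exon bases with SARNP on the opposite strand, and the counting ignored strand. TGFB3, a TGF-beta isoform, had 12.7, 10.96 and 9.60 CPM in neg.si and 15.7, 15.4 and 14.6 CPM in RIPK4.si, without overlap (log2 fold change 0.46, SE 0.171, adjusted p = 0.346 in edgeR).

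BMP8B, the ligand with the highest mean level in neg.si per length of the union of exons, had 141, 156 and 147 CPM in neg.si and 132, 128 and 144 CPM in RIPK4.si. These ranges overlapped (log2 fold change -0.14, adjusted p = 0.846 in edgeR). When neg.si replicate 2 was left out, the log2 fold change of BMP8B was -0.08, and it was -0.09 when RIPK4.si replicate 2 was. TGFB1, TGFB2, BMP6 and INHBE had log2 fold changes from -0.04 to 0.41 and no unadjusted p under 0.05, with TGFB2 higher in every RIPK4.si library. BMP6 and INHBE were, with the inhibitor SMAD6, the genes just inside the filter, with 91, 60 and 67 counts over the 6 libraries. Just outside it, BMP7 had 33, INHBA 23, NOG 16, BMP2 14, GREM1 13 and BMP4 10. Of the 14 counts of BMP2, 12 were in RIPK4.si replicate 1.

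All 5 matrix and latent binding genes passed the filter. LTBP2 (chromosome 14, 74498183 to 74612378), a matrix protein of the latent TGF-beta binding family, had 34.8, 32.4 and 30.5 CPM in the neg.si libraries and 24.9, 15.1 and 22.9 CPM in the RIPK4.si libraries. RIPK4.si replicate 2 was the lowest, and the groups did not overlap. LTBP2's log2 fold change was -0.64 (SE 0.204 and adjusted p = 0.248 in edgeR). LTBP3, which binds latent TGF-beta, had 190.1, 158 and 152 CPM in neg.si and 139, 96.5 and 134 CPM in RIPK4.si, again without overlap (log2 fold change -0.44, SE 0.181, adjusted p = 0.416 in edgeR). RIPK4.si replicate 2 was again the lowest, and without it the log2 fold change of LTBP3 was -0.28. The log2 fold changes of LTBP1, LTBP4 and TGFBI were 0.68, 0.41 and -0.27, with overlapping groups.

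None of the 10 receptor genes tested with edgeR had an adjusted p or an unadjusted p under 0.05, and DESeq2 also called 0 of them. TGFBR2, the type II receptor of TGF-beta, had 374, 418 and 400.2 CPM in the neg.si libraries and 379, 457 and 427 CPM in the RIPK4.si libraries. The groups overlapped (log2 fold change 0.08, SE 0.147, adjusted p = 0.928 in edgeR). Without RIPK4.si replicate 1 the log2 fold change of TGFBR2 was 0.17, without RIPK4.si replicate 2 it was 0.03, and without neg.si replicate 2 it was 0.14. The other receptors, from TGFBR1, BMPR1A and the activin receptors to the coreceptors TGFBR3 and ENG, had log2 fold changes from -0.37 in ACVR2A, which was lower in every RIPK4.si library, to 0.34 in ENG. ENG had 140, 116 and 78.2 CPM in neg.si and 141, 138 and 145 CPM in RIPK4.si, so that the low neg.si value was that of replicate 3. ENG was named after its values were seen.

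Of the 6 signal SMADs, SMAD5 (chromosome 5, 136132845 to 136188747), which carries BMP signals, had the largest difference. It had 27.6, 40.4 and 75.7 CPM in the neg.si libraries and 24.0, 12.6 and 26.8 CPM in the RIPK4.si libraries. The groups came within 1 CPM of each other, and neg.si replicate 3 was far above the other neg.si libraries. SMAD5's log2 fold change was -1.18 (SE 0.382 and adjusted p = 0.255 in edgeR). The adjusted p was 0.0325 with DESeq2 and 0.0377 with the replicate block and the GC trend removed, and the alternatives ran from 0.0325 to 0.561. Without neg.si replicate 3, the log2 fold change was -0.68, and without RIPK4.si replicate 2, the lowest library, it was -0.90. SMAD5 shares exon bases with SMAD5-AS1 on the opposite strand, whose reads cannot be told apart from its own.

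SMAD3, the signal SMAD with the highest level per length in neg.si, had 102, 106 and 106 CPM in neg.si and 96.1, 87.3 and 91.8 CPM in RIPK4.si. All RIPK4.si libraries were lower, by little (log2 fold change -0.19, SE 0.133, adjusted p = 0.727 in edgeR). SMAD1, SMAD2, SMAD4 and SMAD9 lay between -0.12 and 0.10 on the log2 scale, with overlapping groups.

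Among the 7 intracellular inhibitors, TGIF1 (chromosome 18, 3411608 to 3459978), a homeodomain corepressor of SMAD-dependent transcription, had 60.1, 58.6 and 57.8 CPM in the neg.si libraries and 37.0, 30.0 and 37.2 CPM in the RIPK4.si libraries. The groups lay far apart and the neg.si libraries close together, with means of 58.8 ± 1.15 CPM in neg.si and 34.7 ± 4.12 CPM in RIPK4.si (SD, n = 3). TGIF1's log2 fold change was -0.76 (SE 0.15), which missed the threshold in edgeR (adjusted p = 0.0636). It passed with DESeq2 (0.0021), with the GC trend removed (0.0213), with the replicate block and the GC trend removed (0.03) and when neg.si replicate 3 was left out (0.0328), and the alternatives ran from 0.0021 to 0.365.

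SMURF2, a ubiquitin ligase that targets receptors and SMADs, had 69.9, 82.4 and 92.8 CPM in neg.si and 65.2, 56.8 and 66.9 CPM in RIPK4.si. The groups did not overlap, but neg.si replicate 1 and RIPK4.si replicate 3 were close (log2 fold change -0.38, SE 0.159, adjusted p = 0.431 in edgeR). SMURF2 shares exon bases with CEP95 on the opposite strand. Of the other inhibitors, SMAD7, the inhibitory SMAD induced by TGF-beta, and SMURF1 were higher in every RIPK4.si library, with log2 fold changes of 0.33 and 0.13. SKI, SKIL and SMAD6 overlapped between the groups, with log2 fold changes of 0.04, -0.55 and -0.16. None of these 5 had an unadjusted p under 0.05.

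The 4 ID genes encode proteins that block basic helix-loop-helix transcription factors. ID1 had 8.20, 5.33 and 3.71 CPM in the neg.si libraries and 3.44, 4.40 and 5.08 CPM in the RIPK4.si libraries. ID2 had 6.81, 4.23 and 6.77 CPM in neg.si and 3.92, 4.57 and 4.98 CPM in RIPK4.si. In ID1 neg.si replicates 1 and 2 were above all RIPK4.si libraries, and in ID2 neg.si replicates 1 and 3 were, while the remaining neg.si libraries lay within the range of RIPK4.si. ID3 had 19.0, 16.0 and 10.1 CPM in neg.si and 13.9, 11.5 and 11.3 CPM in RIPK4.si. ID4 had 21.9, 21.9 and 21.7 CPM in neg.si and 15.7, 22.2 and 18.8 CPM in RIPK4.si. All 4 log2 fold changes were negative (-0.42, -0.40, -0.30 and -0.21 in ID1, ID2, ID3 and ID4), all 4 genes overlapped between the groups and none had an unadjusted p under 0.05 in edgeR. Without neg.si replicate 1 the log2 fold change was -0.05 in ID1 and -0.08 in ID3, and without RIPK4.si replicate 1 it was -0.27 in ID1 and -0.08 in ID4. Without neg.si replicate 3 it was -0.65 in ID1 and -0.52 in ID3, and without RIPK4.si replicate 2 it was -0.33 in ID4.

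**Figure D2:**
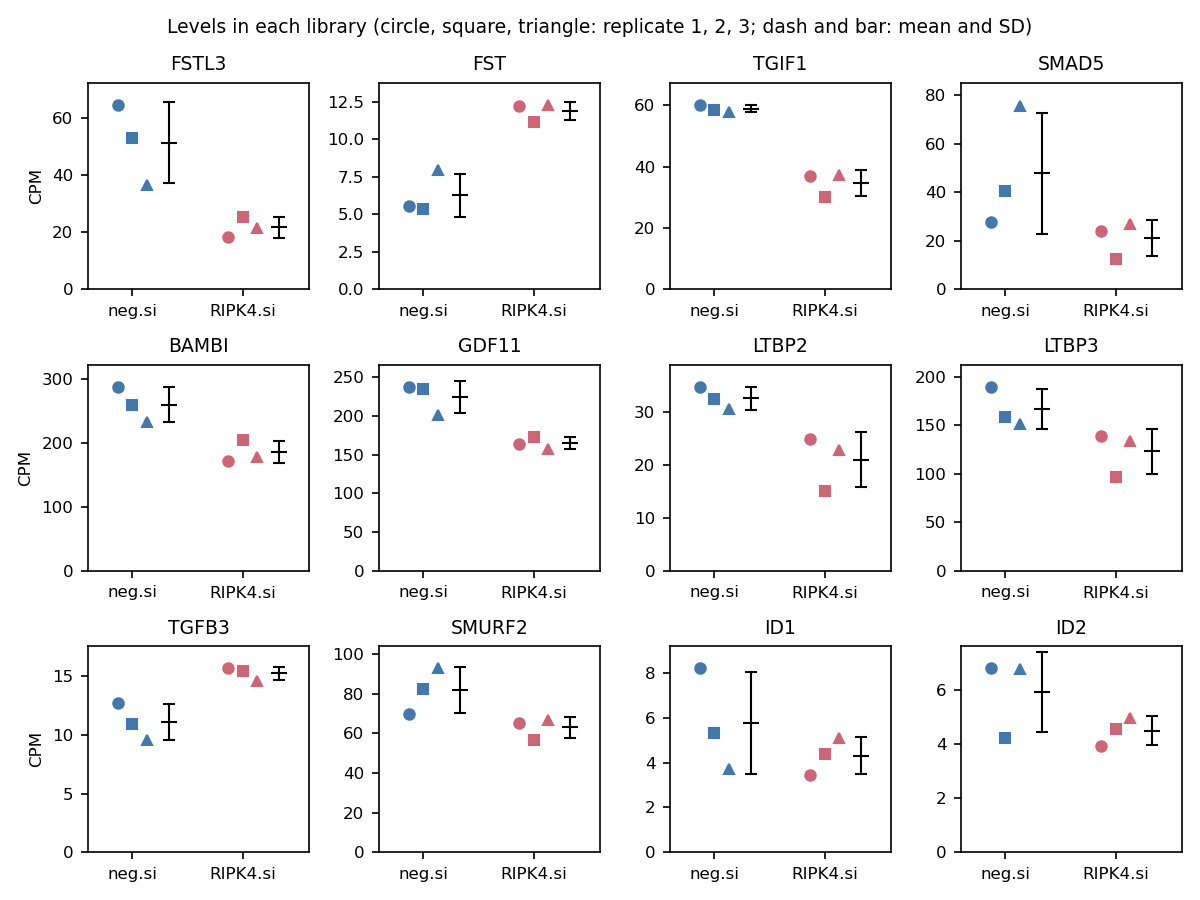
CPM (vertical axis, from 0) of 12 of the genes in each library, with neg.si in blue and RIPK4.si in red, a marker per replicate, and the mean and SD of 3 libraries in black. The groups are apart in FSTL3, FST and TGIF1, neg.si replicate 3 stands high in SMAD5 with 75.7 CPM, and the groups overlap in ID1 and ID2.

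To compare levels between genes, CPM on the total counts on genes, without TMM scaling, was divided by the length of the union of exons in kilobases. On this scale the median of the 48 genes in neg.si was 4.05, and that of all genes tested was 2.91. In all, 36 of the 48 genes were above 1, 12 above 10 and 7 under 0.1. BAMBI had the highest level at 122 ± 8.69 (SD, n = 3) in neg.si and 85.7 ± 3.73 in RIPK4.si. TGFBR2 followed at 58.4 ± 4.39 and BMP8B at 30.9 ± 2.05 in neg.si. The level of TGFB1, 28.9 ± 7.48, did not differ from that of BMP8B beyond their spread, and GDF11 was at 25.6 ± 1.26. The receptor gene ENG, at 28.9 ± 7.03 in neg.si, was also within the spread of BMP8B. The order of TGFB1 and BMP8B was the reverse in RIPK4.si (28.9 and 27.8) and, in neg.si, with the length of the longest transcript (33.9 and 30.9). ENG was above both of them in RIPK4.si (36.5). With the longest transcript in neg.si, ENG (36.3) and LTBP3 (34.6) were above both.

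Among the latent binding genes, LTBP3 had the highest level per length, 14.5 ± 1.40 (SD, n = 3) in neg.si. Among the signal SMADs, SMAD3 stood at 10.5 ± 0.596, with SMAD5 at 5.41 ± 3.06, SMAD2 at 2.81 ± 0.315 and SMAD9 at 0.372 ± 0.0801. The union of exons is 36426 bases long in SMAD2 and 10011 in SMAD3, so that their order depends on this length. In CPM, not divided by length, SMAD2 and SMAD3 had means of 101 and 105 in neg.si and 108 and 91.7 in RIPK4.si. Among the inhibitors, SMURF2 was at 11.4 ± 2.07, SMAD7 at 9.20 ± 1.17, SMURF1 at 8.14 ± 0.155 and TGIF1 at 7.28 ± 0.22, and neither SMURF2 and SMAD7 nor SMAD7 and SMURF1 differed beyond their spread. ID3 was at 10.02 ± 2.69, above the other ID genes. Among the antagonists, FSTL3 was at 16.9 ± 4.07 in neg.si and 7.08 ± 0.821 in RIPK4.si, and FST at 2.31 ± 0.641 and 4.30 ± 0.419. With the length of the longest transcript in place of the union of exons, the level in neg.si was 34.6 in LTBP3, 16.3 in SMAD3, 15.8 in ID3 and 18.6 in TGIF1, which was then above SMURF2 (13.2) and SMAD7 (10.9).

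**Figure D3:**
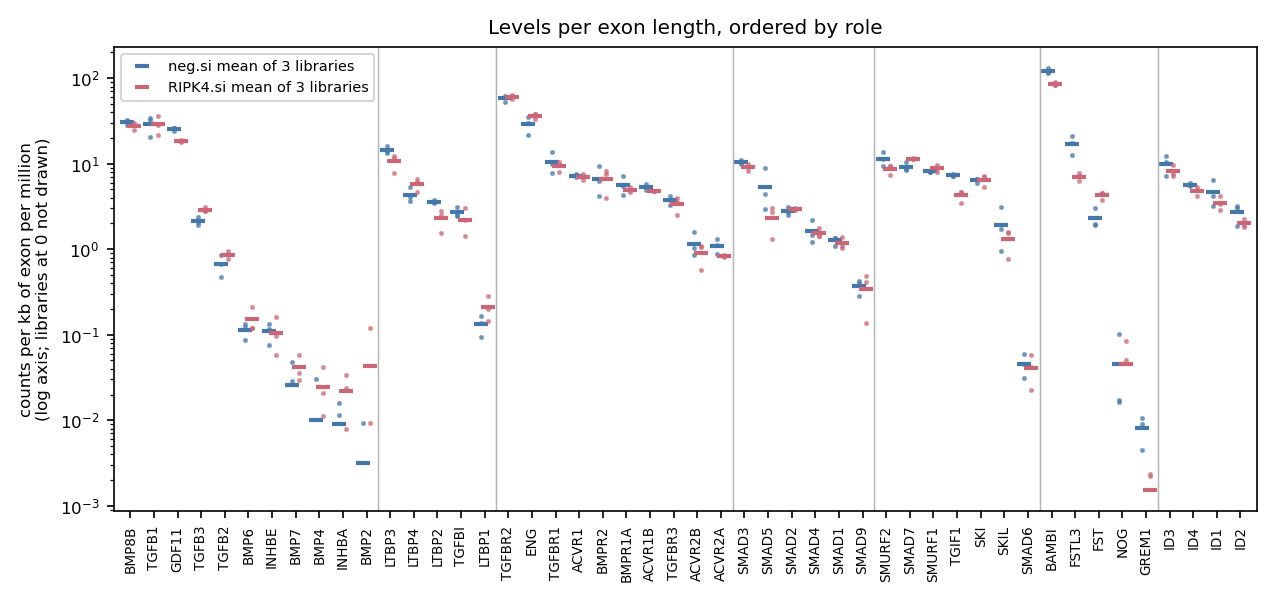
CPM per kilobase of exon (logarithmic vertical axis) of the 48 genes, ordered by role and by level, with points for libraries and bars for the mean of 3 libraries of neg.si (blue) and RIPK4.si (red). BAMBI is highest at 122 in neg.si, and among the ligands BMP6 and INHBE, the least abundant that passed the filter, are at 0.114 and 0.11.

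The level of neg.si replicate 3 relative to the other neg.si libraries followed the GC content of the genes. The log2 ratio of its CPM to their mean was taken with 0.1 CPM added to both. Across the 42 genes this ratio correlated with GC content with Pearson's r = -0.74 and Spearman's rho = -0.76. Neg.si replicate 1, which enters that mean, had a GC trend of opposite sign (rank correlation 0.56 across genes, against -0.55 in replicate 3). The part of replicate 1 in the ratio was not tested. The points share the same libraries and the genes are not independent replicates, so that this is a description. The ratio was highest in SMAD5 (1.15) and SKIL (1.11), with 36.9% and 35.8% GC, and low in ID1 (-0.85), TGFB1 (-0.81) and FSTL3 (-0.69), with 58.6%, 63.6% and 64.3% GC. With the GC trend removed, the log2 fold change was -1.27 in FSTL3, 0.96 in FST, -0.74 in TGIF1 and -1.09 in SMAD5.

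**Figure D4:**
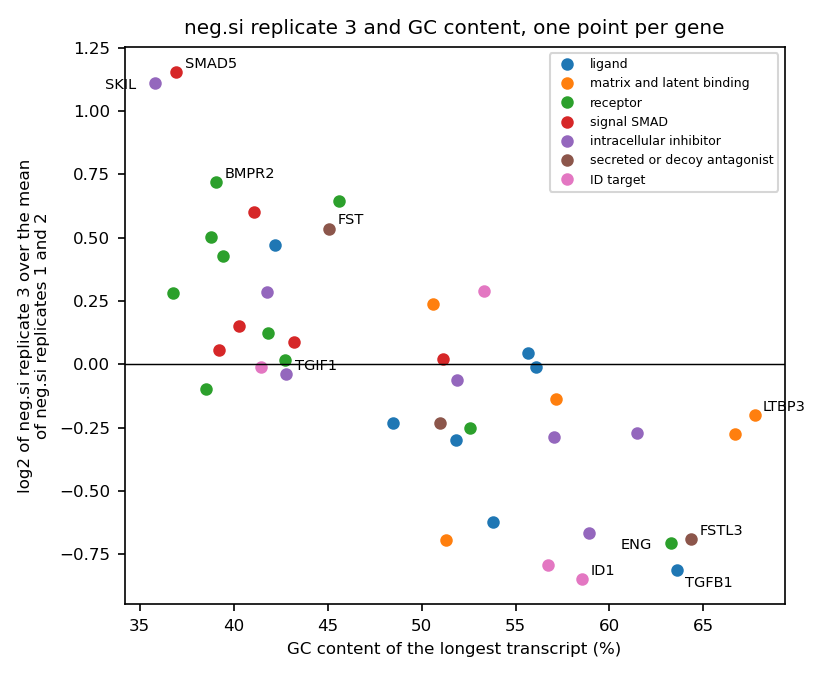
GC content of the longest transcript in percent (horizontal axis) and the log2 ratio of neg.si replicate 3 to the mean of neg.si replicates 1 and 2 (vertical axis), a point for each of the 42 genes, coloured by role. The ratio tends to be lower at higher GC content (Pearson's r = -0.74) and lies between 1.15 in SMAD5 and -0.85 in ID1, while LTBP3, with the highest GC content at 67.7%, is at -0.20.

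The 7-base sequence ACAGCTT was chosen on these same libraries for going with lower transcript levels, so its presence here is a description and no independent evidence. For 14 of the 42 genes (33.3%) the longest annotated 3′ UTR of a protein-coding transcript holds it, against 16.0% of the 12963 tested genes with such a UTR, and the UTRs of the pathway genes were longer, with a median of 2622 bases against 1512. Sites are shown for the genes with an unadjusted p under 0.05, the first in GDF11, with 10 bases on each side and the sequence in capitals, from GENCODE release 44 on GRCh38, plus strand.
TGIF1: gattgctaaaACAGCTTcctgttactg
SMAD5: aacagatattACAGCTTatttttttct
BAMBI: cacttactgaACAGCTTgaaggccttt
GDF11: agtggcatctACAGCTTctggtctgta
FST: gaccaggactACAGCTTtcctatatct
These sites are at chr18:3458046-3458072, chr5:136177571-136177597, chr10:28682421-28682447, chr12:55754412-55754438 and chr5:53485989-53486015. GDF11 holds 3 copies. Of the 8 genes with lower levels in RIPK4.si at an unadjusted p under 0.05, 4 hold the sequence (TGIF1, SMAD5, BAMBI and GDF11) and FSTL3, LTBP2, LTBP3 and SMURF2 do not. Of the 2 with higher levels, FST holds it and TGFB3 does not. These counts depend on the transcripts used. With transcripts annotated for nonsense-mediated decay included, a choice made after seeing the data, the count was again 14 of the 42 genes, with SMURF2 in place of the receptor gene ACVR1, against 18.4% of 12989 tested genes. The median log2 fold change was -0.15 in the pathway genes with the sequence and -0.14 in those without it. Over all tested genes with a UTR it was -0.10 with the sequence and -0.00 without it.

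Beyond the list, 71 of 105 other genes of the pathway and its targets passed the filter. edgeR called 3, of which 1 was higher and 2 lower, and 15 had an unadjusted p under 0.05, 4 higher and 11 lower. Over all genes tested, 0.767% were called and 10.8% had an unadjusted p under 0.05, 4.85% higher and 6.0% lower. CCN2, a matricellular growth factor and a well known TGF-beta target, had 56.8, 62.6 and 58.9 CPM in the neg.si libraries and 131, 149 and 140 CPM in the RIPK4.si libraries. The groups lay far apart. CCN2 rose by a log2 fold change of 1.24, with an SE of 0.139 and an adjusted p of 0.0102 in edgeR, and the alternatives ran from 1.56e-10 to 0.129. It shares exon bases with LINC01013 on the opposite strand. The call was lost without RIPK4.si replicate 1, 2 or 3 (0.094, 0.0593 and 0.1) and when neg.si replicate 2 was left out (0.129). In these fits edgeR called 0, 4, 0 and 0 genes in all, in that order. The log2 fold change of CCN2 without single libraries ran from 1.20 to 1.29.

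The other 2 calls were of genes with few counts. AMHR2, the type II receptor of anti-Müllerian hormone, had 60, 46 and 23 counts in the neg.si libraries and 7, 7 and 7 in the RIPK4.si libraries (log2 fold change -2.55, SE 0.455, adjusted p = 0.0449 in edgeR, with 0.000854 to 0.29 over the alternatives). ITGB6, a subunit of an integrin that activates latent TGF-beta, had 19, 20 and 26 counts in neg.si and 4, 2 and 3 in RIPK4.si (log2 fold change -2.75, SE 0.46, adjusted p = 0.0397 in edgeR, with 0.0149 to 0.287 over the alternatives). Every RIPK4.si library was lower in both. Both calls were lost when any single RIPK4.si library, neg.si replicate 1 or neg.si replicate 2 was left out, with adjusted p from 0.0947 to 0.29 in AMHR2 and from 0.0659 to 0.287 in ITGB6. The call of ITGB6, which shares exon bases with an unnamed gene on the same strand, was also lost with the replicate block (0.0567).

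DESeq2 called 7 of the 69 genes of these 71 for which it gave an adjusted p, against 2.78% of all genes. They were CCN2, AMHR2 and 5 that edgeR did not call. ANGPTL4, a secreted protein induced by TGF-beta, had 103, 82.3 and 45.6 CPM in neg.si and 198, 256 and 190.1 CPM in RIPK4.si (log2 fold change 1.48, adjusted p = 0.0518 in edgeR and 3.57e-05 in DESeq2, with 3.57e-05 to 0.279 over the alternatives). All RIPK4.si libraries were higher, and edgeR called ANGPTL4 when neg.si replicate 1 or 3 was left out (0.0383 and 0.0135), with the replicate block (0.0179), with the GC trend removed (0.00288), with both (0.00268), with no filter on low counts (0.0342) and with upper-quartile scaling (0.0469). THBS1, a matrix protein that activates latent TGF-beta, had 261, 303 and 330 CPM in neg.si and 539, 393 and 527 CPM in RIPK4.si (log2 fold change 0.71, adjusted p = 0.13 in edgeR and 0.011 in DESeq2, with 0.011 to 0.546 over the alternatives). All RIPK4.si libraries were again higher. Of the 26 target genes outside the list that passed the filter, 3 had higher levels (4.85% of all genes) and 7 lower levels (6.0% of all genes) at an unadjusted p under 0.05.

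The cytokine IL11 had 5.72, 7.06 and 3.49 CPM in neg.si and 1.84, 2.77 and 2.86 CPM in RIPK4.si (log2 fold change -1.12, adjusted p = 0.16 in edgeR and 0.0344 in DESeq2, with 0.0228 to 0.612 over the alternatives). FBN1, a fibrillin of the microfibrils that hold latent TGF-beta, had 48.3, 56.2 and 51.7 CPM in neg.si and 35.5, 27.2 and 33.1 CPM in RIPK4.si (log2 fold change -0.70, adjusted p = 0.097 in edgeR and 0.0111 in DESeq2, with 0.0111 to 0.517 over the alternatives). The transcription factor gene HEY1 had 125, 124 and 140.2 CPM in neg.si and 84.1, 83.2 and 88.7 CPM in RIPK4.si (log2 fold change -0.60, adjusted p = 0.097 in edgeR and 0.0156 in DESeq2, with 0.0156 to 0.489 over the alternatives). The groups did not overlap in these 3 genes. edgeR called IL11 when neg.si replicate 3 was left out (0.0228). With the GC trend removed, without and with the replicate block, it called FBN1 (0.0207 and 0.0392), HEY1 (0.0291 and 0.0495) and THBS1 (0.0254 and 0.0396, with 0.011 to 0.546 over the alternatives). NEDD9 and TRIM33 completed the 10 genes with the smallest p, with log2 fold changes of -0.53 and -0.58 and adjusted p of 0.22 and 0.232 in edgeR. TRIM33 was called with the GC trend removed (0.0345, with 0.0345 to 0.63 over the alternatives).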

How the data were processed

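Per the study's methods, RNA was enriched for polyA and sequenced on the BGISEQ500 platform. The authors trimmed reads with Cutadapt, mapped them with TopHat to GRCh38.p13 and deposited counts of read pairs per gene from HTSeq without regard to strand. The deposited normalized counts, a signal obtained by the authors as counts divided by DESeq2's size factor, and their comparison columns (mean, fold change, standard error, p-value and adjusted p-value) were not used.

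Counts of the 6 libraries were tested over all genes with edgeR 4.0.16 (R 4.3.3) by the quasi-likelihood test with TMM scaling, filterByExpr and Benjamini-Hochberg adjustment, with a threshold of 0.05. Standard errors were derived from the log2 fold change and its F statistic. The alternatives were DESeq2 1.42.0, other scalings and filters, the replicate number as a block, removal of a lowess trend on GC content (span 0.3) and leaving out each library. The fits were tested on simulated data. Exon lengths, GC content, UTRs and overlaps came from GENCODE release 44, in which 24416 of the 24526 genes were found.

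The genes, lists, alternatives and the 7-base sequence were chosen with earlier results of these data known. Values in each library are given for listed genes with an unadjusted p under 0.05 in edgeR or an adjusted p under 0.05 in DESeq2, for the highest level per length of each role and for the ID genes. Of other pathway genes, those called by either tool and the 10 with the smallest p are named.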

Additional observations from a re-analysis of the deposited data

How the results depend on the processing

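The 27 genes other than RIPK4 that were followed through the alternatives kept the sign of their log2 fold change in each of 375 values, of which 22 lost and 30 gained a call. The other listed genes were compared with DESeq2 and with the GC trend removed alone, and with the latter the log2 fold change went from 0.02 to -0.01 in TGFB1, from -0.04 to 0.01 in SMAD4 and from 0.04 to -0.01 in SKI. DESeq2 gave no adjusted p for ITGB6, and ITGB6 and AMHR2 fell below the minimum of 10 counts. edgeR called 125 genes in all (0.767% of those tested), against 430 with DESeq2 (2.78% of those with an adjusted p). With the GC trend removed edgeR called 533 (3.27%), and 434 with the replicate block and the GC trend removed. With DESeq2's size factors edgeR called 110, with a minimum of 10 counts in every library 108, and without single libraries 0 to 295 (0% to 1.78%). DESeq2 called 4 of the listed genes, removal of the GC trend 3, the block with that removal 4, and both DESeq2's size factors in edgeR and a minimum of 10 counts in every library 0, with 10 at an unadjusted p under 0.05 in each of these last 2. Without single libraries edgeR called 0 to 3 of them, with 5 to 14 at an unadjusted p under 0.05, against 6.48% to 14.3% of all genes. Of the other pathway genes, DESeq2 called 7, GC removal 8, the block with GC removal 7, a minimum of 10 counts 1, and the fits without single libraries 0 to 5. The log2 fold change of RIPK4 was -2.06 to -1.74 without single libraries. The median level per length was 4.81 with the longest transcript. The share of tested genes with the 7-base sequence was 18.4% with nonsense-mediated decay transcripts, added after seeing the data, and the count of listed genes stayed at 14. Fewer libraries or genes enter some of these fits, and for the rest the cause was not tested.

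By their labels, the samples of the groups share only a number. The paper's captions describe the replicates as independent experiments and do not tie the numbers to them. Same-numbered deviations correlated at -0.24, 0.25 and 0.34, and not every sample correlated best with its own number. With the replicate block edgeR called 131 genes and 1 of the listed genes. Genes under the filter on low counts had too few counts for a fold change.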
